A study of Homo sapiens with 12 samples.

Results

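The miR-193b and miR-365a cluster is a pair of microRNA hairpins on human chromosome 16, each of which gives a 5p and a 3p mature strand. Its 4 mature miRNAs (hsa-miR-193b-5p, hsa-miR-193b-3p, hsa-miR-365a-5p and hsa-miR-365a-3p, written without hsa from here on) were taken by name from a count table of 1636 mature miRNAs. They were measured by small RNA sequencing of extracellular vesicles shed by 6 cancer cell lines, HT55, SW1116, RCM-1, MDST8, Car-1 and Hutu80, with 2 libraries a line. The labels give all 6 as colorectal cancer, though Hutu80 is known as a line from a tumour of the duodenum. All lines were grown untreated in the same medium with fetal bovine serum, and vesicles were taken from the medium by ultrafiltration and size exclusion chromatography. The series as a whole asks how vesicles of 3 lines of consensus molecular subtype 2 differ from those of 3 lines of subtype 4. The labels do not say which line has which subtype, so every comparison is between single lines and none is between subtypes. The labels leave unsaid whether both libraries of 1 line stem from different cultures; the p-values therefore rest on library-to-library spread that may be technical only.

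A hairpin is cut by Drosha and Dicer into a duplex, and usually one strand of the duplex is loaded into an Argonaute protein while the other is lost. The loaded strand finds its targets mainly through its seed, bases 2 to 8. miR-193b-3p is known as a repressor of the cyclin CCND1 and of the urokinase gene PLAU, and miR-365a-3p is also known to repress CCND1. The cluster is known from brown fat, where it is expressed during differentiation, and the 5p strands are usually treated as the minor products of both hairpins.

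The mature sequences show which reads can be told apart, so they are printed with the seed in capitals, 5′ to 3′, from RefSeq (GRCh38.p14). The related hairpins on chromosome 17, miR-193a and miR-365b, are included because they share seeds with the cluster.
miR-193b-5p: cGGGGUUUugagggcgagauga
miR-193a-5p: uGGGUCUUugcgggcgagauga
miR-365a-5p: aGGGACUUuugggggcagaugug
miR-365b-5p: aGGGACUUucaggggcagcugu
miR-193b-3p: aACUGGCCcucaaagucccgcu
miR-193a-3p: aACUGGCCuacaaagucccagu
miR-365a-3p and miR-365b-3p: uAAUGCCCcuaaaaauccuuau

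Counted from 1 at the 5′ end, miR-193a-3p differs from miR-193b-3p by C9U, U10A, G20A and C21G, all outside the seed. miR-193a-5p differs from miR-193b-5p by C1U, G5U, U6C and A11C, so these 5p strands have different seeds, and no other miRNA of the table has the seed of miR-193b-5p. miR-365b-5p differs from miR-365a-5p by U10C, G11A and A19C over 22 bases and shares its seed. miR-365a-3p and miR-365b-3p have 0 substitutions and the same count in every library, so a read of either cannot be assigned to chromosome 16 or 17. In the GENCODE 29 transcripts each of the other 3 members matched only its own hairpin.

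The hairpins are printed with both mature strands in capitals. MIR193B lies at chr16:14303967-14304049 and MIR365A at chr16:14309285-14309371, both on the plus strand of GRCh38.p14.
MIR193B: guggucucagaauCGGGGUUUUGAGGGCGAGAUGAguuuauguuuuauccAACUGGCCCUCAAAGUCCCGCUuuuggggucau
MIR365A: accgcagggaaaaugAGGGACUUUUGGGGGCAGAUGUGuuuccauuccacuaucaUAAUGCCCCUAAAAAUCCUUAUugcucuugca
The hairpins are 5235 bases apart and both lie in introns of the non-coding gene MIR193BHG, with 0 exons of its transcripts overlapping either. On chromosome 17, MIR193A and MIR365B are 15327 bases apart.

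Library totals ran from 71831 to 622800 counts, and the Hutu80 libraries were the smallest, with 71831 and 100531. After a filter on low counts 318 miRNAs were tested, and all 4 members were among them. Levels are given as scaled CPM, counts relative to the library total (CPM) after TMM scaling between libraries. One count was worth 2.23 scaled CPM in the deepest library and 10.9 in the shallowest, and a member never took more than 0.219% of a library. The 2 libraries of a line differed by more than sampling noise in every line (chi-square per degree of freedom 6.75 to 51.4), so none was counted as a repeat of another. These are shares of vesicle RNA: fewer vesicles that carry a miRNA and less of it per vesicle cannot be told apart.

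Both 5p strands were high in vesicles of Car-1 and Hutu80 and low in the other 4 lines, whereas neither 3p strand passed the test across all 6 lines. miR-365a-5p had the widest range of the members. Its level was 1663 and 1848 scaled CPM in the Hutu80 libraries. In Car-1 it was 967 and 875. In HT55 it was 34.7 and 79.0, and in SW1116 51.4 and 0. The 4 libraries of Car-1 and Hutu80 thus stood clear of the other 8, of which HT55 replicate 2 was the highest. In RCM-1 the level was 32.7 and 20.7, and in MDST8 19.0 and 12.6. The 0 in SW1116 replicate 2 allows up to 9.40 scaled CPM, the worth of 3 counts there.

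miR-365a-5p differed across lines (adjusted p = 3.59e-10, edgeR quasi-likelihood test with Benjamini-Hochberg adjustment over 318 miRNAs). Of the 4 members 2 passed that test, as did 68.2% of all tested miRNAs. Against the mean of the other 5 lines, miR-365a-5p was higher in Hutu80 by 4.91 ± 0.368 on the log2 scale (SE, n = 2 libraries; edgeR adjusted p = 9.07e-11). In Car-1 the log2 difference was 3.80 ± 0.374 (edgeR adjusted p = 2.79e-08). In each of these 2 lines 2 of 4 members, the 5p strands, were called higher, beside 23% of tested miRNAs in Hutu80 and 21.1% in Car-1. Since the high lines are part of the mean that each other line is set against, the low lines take negative differences from them. These were -3.19 ± 0.643 in MDST8 (edgeR adjusted p = 2.47e-04), -2.40 ± 0.635 in RCM-1 (0.00439) and -2.22 ± 0.569 in SW1116 (0.0040), while -0.90 ± 0.577 in HT55 did not pass (0.277). The share of tested miRNAs called lower was 22.3% in MDST8, 14.8% in RCM-1 and 16.7% in SW1116. Without SW1116 replicate 1, the only SW1116 library with a count, the adjusted p of MDST8 and RCM-1 became 1.00 each, and without SW1116 replicate 2 that of SW1116 became 0.0757. The RCM-1 call was lost in 5 of 23 refits, also with limma-voom (0.0689), limma-trend (0.0552), and without RCM-1 replicate 1 (0.0781) or replicate 2 (0.191).

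miR-193b-5p had the same pair of high lines at lower levels. Its level was 264 and 365 scaled CPM in Car-1. In Hutu80 it was 87.5 and 328, from 8 and 39 counts. The other 8 libraries ran from 12.7 to 56.4 with a median of 43.7, so the 4 libraries of Car-1 and Hutu80 were again the highest, but the 2 of Hutu80 were far apart. Across lines it passed (edgeR adjusted p = 9.93e-05). It was higher in Car-1 by 2.52 ± 0.443 (edgeR adjusted p = 7.04e-05) and in Hutu80 by 1.84 ± 0.497 (0.0046). The Hutu80 call rests on 1 library: without Hutu80 replicate 2 the difference was 0.31 (edgeR adjusted p = 0.901). In MDST8 the difference was -1.71 ± 0.619 (edgeR adjusted p = 0.0280), a call lost in 6 of 23 refits, among them without MDST8 replicate 1 (0.266).

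**Figure D1:**
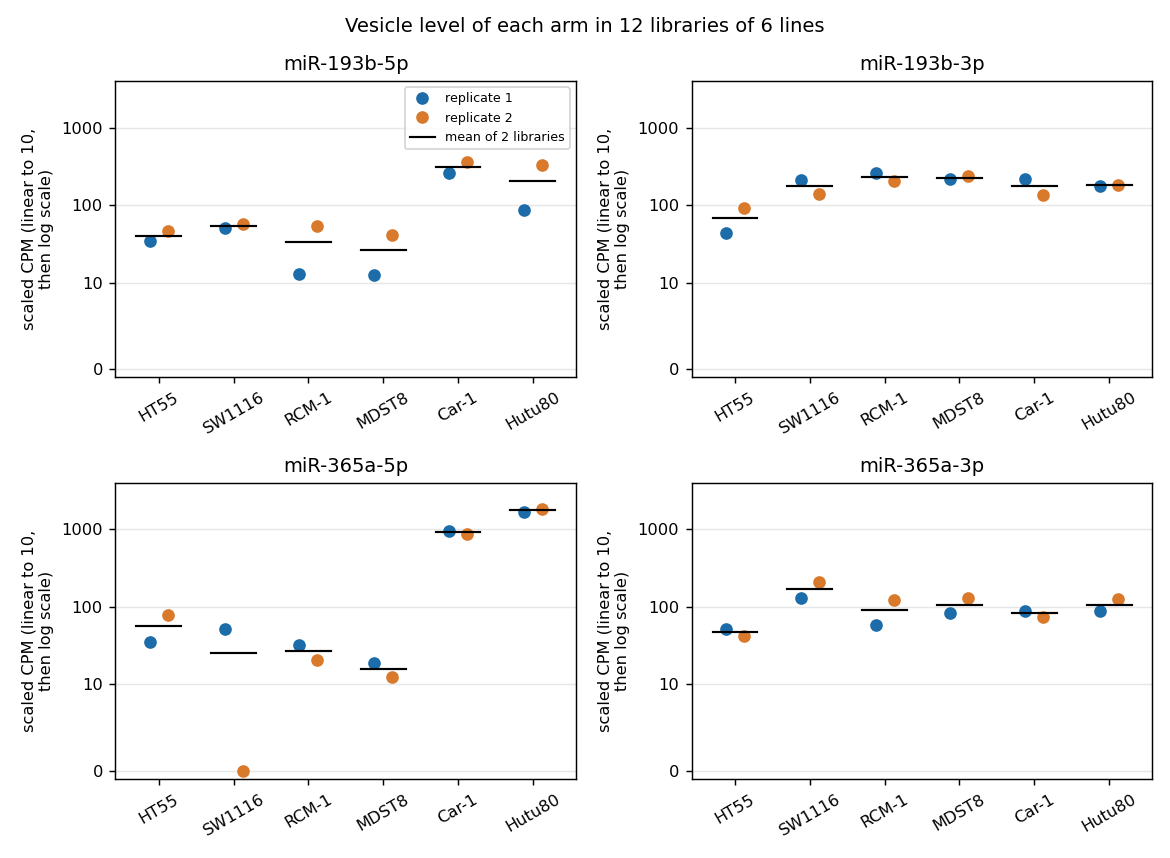
Scaled CPM of each member in the 12 libraries, by cell line; the axis is linear to 10 and logarithmic above, points are libraries and bars the mean of 2. miR-365a-5p lies between 875 and 1848 in Car-1 and Hutu80 and at 79.0 or below elsewhere, while the 3p strands stay within 41.8 to 261 in all lines.

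Among the 15 pairs of lines, 8 were called for miR-365a-5p and 8 for miR-193b-5p, beside 32.9% of all tests over the 15 pairs. For both they were the 8 pairs that set Car-1 or Hutu80 against one of the other 4 lines. The log2 differences in those pairs ran from 3.91 to 6.75 for miR-365a-5p and from 1.96 to 3.53 for miR-193b-5p. In order of level, miR-365a-5p fell from Hutu80 (mean 1755 ± 131 scaled CPM, SD, n = 2) to Car-1 (921 ± 65.2), HT55 (56.9 ± 31.3), RCM-1 (26.7 ± 8.47), SW1116 (25.7 ± 36.3) and MDST8 (15.8 ± 4.59). Of the 5 steps between neighbours in that order, the step from Car-1 to HT55 passed (edgeR adjusted p = 3.88e-05), beside 28.9% of tested miRNAs in that pair. For miR-193b-5p the order was Car-1 (315 ± 71.3), Hutu80 (208 ± 170), SW1116 (53.9 ± 3.58), HT55 (40.6 ± 8.31), RCM-1 (33.1 ± 28.4) and MDST8 (26.8 ± 19.9), and the step from Hutu80 to SW1116 passed (0.0215), beside 44% of tested miRNAs. That step did not pass in 8 of 23 refits. The difference between Car-1 and Hutu80 did not pass for either 5p strand (edgeR adjusted p = 0.259 and 0.701), a pair in which 18.2% of tested miRNAs were called.

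A pattern of this kind was not rare in the table. Of the 318 tested miRNAs, 17 (5.35%) were called higher in all 8 pairs, and 30 (9.43%) had all 4 libraries of Car-1 and Hutu80 above the other 8. By size of the difference, miR-365a-5p ranked 14 of 318 in Car-1 and 15 in Hutu80, and miR-193b-5p ranked 29 and 46.

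miR-193b-3p, the strand with the known targets, ranged less. Its level was 261 and 207 scaled CPM in RCM-1, 216 and 236 in MDST8, and 175 and 185 in Hutu80. In SW1116 it was 212 and 141, and in Car-1 215 and 135. In HT55 it was 43.4 and 93.0, from 5 and 20 counts, which put both HT55 libraries below the other 10, as was the case for 2.2% of tested miRNAs. Across lines it did not pass (edgeR adjusted p = 0.0860). HT55 alone was called, with a log2 difference of -1.45 ± 0.449 from the other 5 lines (edgeR adjusted p = 0.0175), beside 10.4% of tested miRNAs called lower there. HT55 was also called below MDST8 (-1.65 ± 0.523; 0.0127) and RCM-1 (-1.70 ± 0.528; 0.0361), pairs in which 39.6% and 13.5% of tested miRNAs were called, and no difference between neighbours in the order of levels passed. The HT55 call was lost in 4 of 23 refits: without HT55 replicate 1 the difference was -1.05 (edgeR adjusted p = 0.309), without replicate 2 it was -2.02 (0.0532), and with limma-voom and with no filter on low counts the adjusted p was 0.0694 and 0.0658.

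miR-365a-3p, whose counts can include miR-365b-3p, was highest in SW1116, with 132 and 207 scaled CPM. It was lowest in HT55, with 52.1 and 41.8, from 6 and 9 counts. The level was 82.5 and 132 in MDST8, 87.5 and 126 in Hutu80, 58.8 and 124 in RCM-1, and 89.4 and 75.0 in Car-1. The lines overlapped apart from HT55, whose libraries were the lowest 2 of 12, as was the case for 2.2% of tested miRNAs. Across lines it did not pass (edgeR adjusted p = 0.170). The log2 difference was 1.00 ± 0.415 in SW1116 (edgeR adjusted p = 0.0629) and -1.23 ± 0.554 in HT55 (0.116). The one pair called of 15 was HT55 against SW1116 (-1.86 ± 0.641; 0.0413), beside 20.4% of tested miRNAs.

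**Figure D2:**
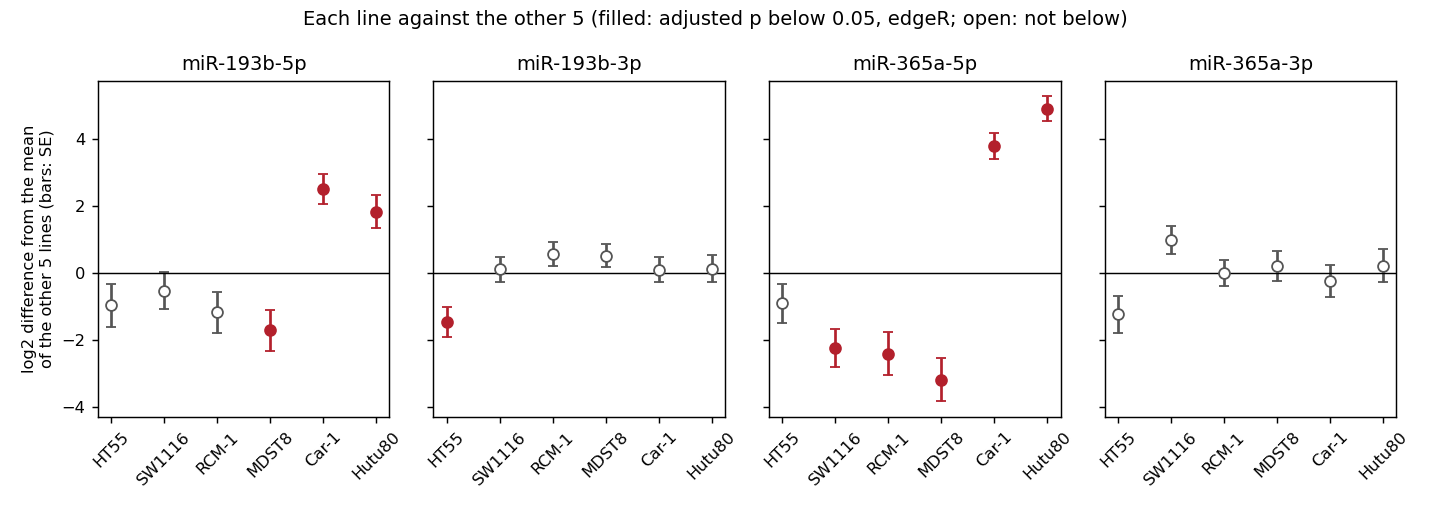
Log2 difference of each line from the mean of the other 5 lines for each member, with SE bars; filled points have an adjusted p below 0.05 in edgeR's test. The filled points above 0 are Car-1 and Hutu80 for both 5p strands (1.84 to 4.91), and the 3p strands have 1 filled point, HT55 for miR-193b-3p at -1.45.

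Because both strands of a hairpin are counted in the same library, their share needs no scaling between libraries. For miR-365a the 5p strand made up 95.0% and 93.6% of both strands in the Hutu80 libraries (exact binomial 95% intervals 90.4 to 97.8% and 89.7 to 96.4%). In Car-1 it made up 91.5% and 92.1%. It was the smaller strand in MDST8 (18.8% and 8.70%), RCM-1 (35.7% and 14.3%) and SW1116 (28.0% and 0%). In HT55 the shares were 40.0% and 65.4%, from 10 and 26 counts of both strands, and the intervals, 12.2 to 73.8% and 44.3 to 82.8%, reached to both sides of 50%. By count, the larger strand of miR-365a was thus 5p in all 4 libraries of Car-1 and Hutu80 and 3p in all 6 of MDST8, RCM-1 and SW1116. RCM-1 replicate 1 had only 5 and 9 counts of the 5p and 3p strand. Its interval, 12.8 to 64.9%, also reached to both sides of 50%. Any miR-365b-3p among the shared counts makes the true 5p share of miR-365a higher than these values. Intervals cover counting error only.

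For miR-193b the 5p share was 55.1% and 73.0% in Car-1. In Hutu80 it was 33.3% and 63.9%, so the replicates fell on opposite sides of 50%. In HT55 it was 44.4% and 33.3%, in SW1116 19.5% and 28.6%, in RCM-1 4.76% and 20.5%, and in MDST8 5.56% and 14.8%. Among the 12 libraries 3 therefore had more 5p than 3p. miR-193a, the chromosome 17 relative, had more 5p than 3p in all 12 libraries, with shares from 85.7% to 98.7%.

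**Figure D3:**
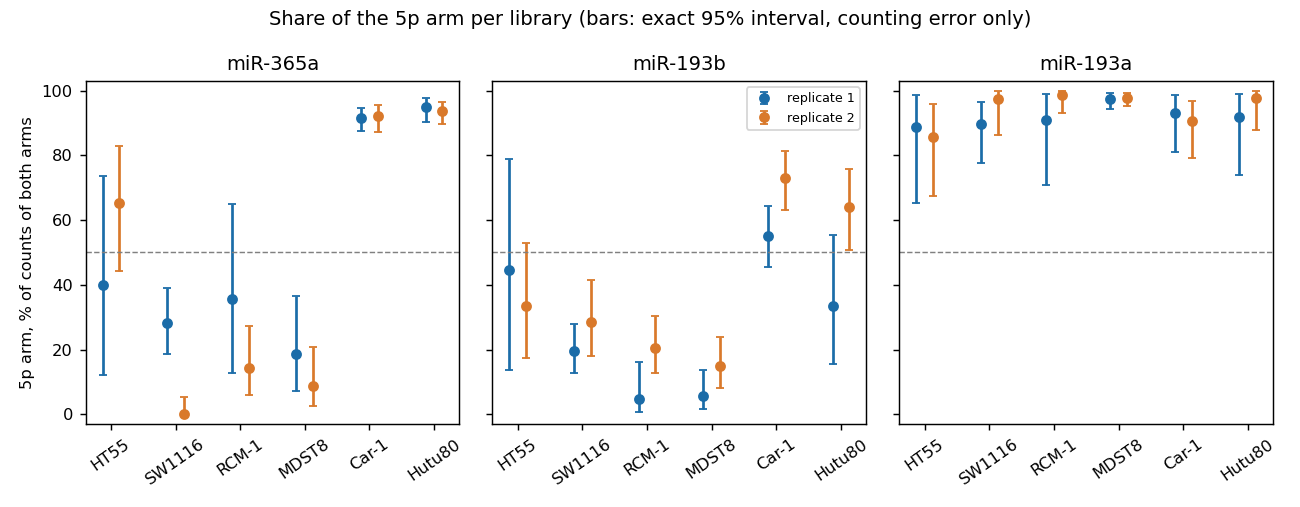
Share of the 5p strand in the counts of both strands, in percent, for miR-365a, miR-193b and miR-193a in each library, with exact 95% binomial intervals and a dashed line at 50%. The miR-365a share is 91.5% or more in Car-1 and Hutu80 and from 0 to 65.4% elsewhere, and that of miR-193a is 85.7% or more throughout.

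Over all hairpins with both strands in the table and at least 20 counts in each line, 118 in number, the cluster held the first 2 places for the range of the 5p share over lines. With both libraries of a line summed, the share of miR-365a ran from 12.8% in MDST8 to 94.2% in Hutu80, a range of 81.4 percentage points, and that of miR-193b from 10.6% in MDST8 to 63.3% in Car-1, a range of 52.7. The median range was 3.33 points. In 9 of the 118 hairpins (7.63%) the major strand differed between lines, and miR-1304, miR-18a, miR-324, miR-423 and miR-130b were among these. miR-1304 had the next widest range, 45.4 points, and miR-193a ranked 33 with 10.8. These ranks are a description of line sums with no test.

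**Figure D4:**
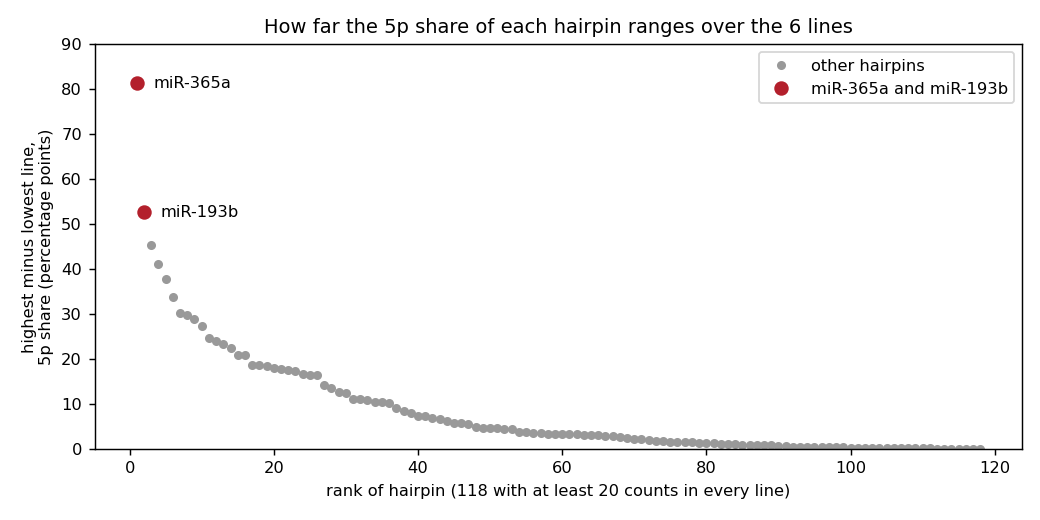
Range over the 6 lines of the 5p share, in percentage points, for 118 hairpins in order of rank. miR-365a (81.4) and miR-193b (52.7) hold the first and second rank, and the median hairpin has 3.33.

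Ratios of 2 miRNAs within a library were tested across lines by an exact permutation test over all 10395 ways of pairing the 12 libraries, whose smallest possible p is 9.62e-05. Of 7 ratios computed, 5 belonged to the design and 2, miR-365a-5p over miR-193b-5p and over miR-365b-5p, were added later. All 7 are adjusted together. The log2 ratio of miR-365a-5p to miR-365a-3p spanned 8.20 between the line means of SW1116 and Hutu80 (exact permutation p = 0.0110, adjusted p = 0.0384). That call depends on the pseudocount of 0.5 counts: with 0.1 the adjusted p was 0.0657. The SW1116 libraries had log2 ratios of -1.34 and -7.06, the second set by the count of 0 and the pseudocount. The ratio of miR-193b-5p to miR-193b-3p spanned 4.06 between MDST8 and Car-1 and did not pass after adjustment (exact permutation p = 0.0335, adjusted p = 0.0781). Adjusted over the first 5 ratios alone these values would be 0.0274 and 0.0558.

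The ratio of the 3p strands of the neighbours, miR-365a-3p to miR-193b-3p, spanned 1.34 (exact permutation p = 0.517, adjusted p = 0.604). That of their 5p strands, miR-365a-5p to miR-193b-5p, spanned 5.93 (exact permutation p = 0.137, adjusted p = 0.191). A p of this size does not show that the ratios were equal between lines. The low end of the 5p ratio was SW1116, with 0 and -5.21, the second again set by the miR-365a-5p count of 0 in replicate 2. As a description over 6 line means of log2 scaled CPM, which share libraries and scaling, Pearson's r was 0.91 between the 5p strands and 0.69 between the 3p strands. Within a hairpin it was -0.14 for miR-365a and -0.0011 for miR-193b, values that describe these lines and were not tested.

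The chromosome 17 relatives were followed in the same way. Of the 4, 3 were tested and 2 were called across lines, beside 68.2% of all tested miRNAs. miR-193a-5p was highest in MDST8, with 616 and 735 scaled CPM against 98.3 to 361 in the other 10 libraries. Both MDST8 libraries were above the other 10 for 15.1% of tested miRNAs. The log2 difference of miR-193a-5p in MDST8 was 1.97 ± 0.286 (edgeR adjusted p = 3.85e-06), beside 22% of tested miRNAs called higher. It was lower in SW1116 (-1.22 ± 0.364; edgeR adjusted p = 0.0128), beside 16.7% of tested miRNAs called lower. In Car-1 and Hutu80 its differences were -0.13 ± 0.344 and 0.61 ± 0.340 (edgeR adjusted p = 0.814 and 0.166). The ratio of miR-193b-5p to miR-193a-5p spanned 5.42 on the log2 scale between MDST8 and Car-1 (exact permutation p = 0.00115, adjusted p = 0.00808). miR-365b-5p had 22 and 11 counts in Car-1 and 7 and 11 in Hutu80, and at most 3 in any other library, with 5 libraries at 0. It was called higher in all 8 pairs of Car-1 or Hutu80 with another line, from 56 counts in all. The ratio of miR-365a-5p to it did not pass across lines (exact permutation p = 0.613, adjusted p = 0.613). miR-193a-3p, which has the seed of miR-193b-3p, had 36 counts in all and was not tested, and the ratio of miR-193b-3p to it did not pass (exact permutation p = 0.0606, adjusted p = 0.106).

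Of 11 other miRNAs of the table within 5000000 bases of miR-193b on chromosome 16, 3 had counts enough to be tested. All 3 were called across lines, beside 68.2% of all tested miRNAs. miR-3180-5p was high in Hutu80 (mean 141 ± 32.9 scaled CPM, SD, n = 2; log2 difference 4.94 ± 0.734, edgeR adjusted p = 7.50e-06) and was at 4.53 ± 0.662 in Car-1. miR-3180-3p, with 41 counts in all, was high in Hutu80 as well (109 ± 0.153) and was at 8.60 ± 5.08 in Car-1, with no call there (edgeR adjusted p = 0.238). In RCM-1, at 36.8 ± 31.1, it was also called higher (3.66 ± 0.985, edgeR adjusted p = 0.00535), beside 21.1% of tested miRNAs. The miR-3180 hairpin is present in several near-identical copies, so its counts are uncertain as to place. miR-484 had differences of -0.19 ± 0.301 in Car-1 and -0.12 ± 0.312 in Hutu80, neither called (edgeR adjusted p = 0.692 and 0.824).

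Of 12 other miRNAs known to repress CCND1, 9 were tested. Across lines 3 were called, let-7b-5p, miR-34a-5p and miR-15b-5p, beside 68.2% of all tested miRNAs. In Car-1 and in Hutu80, 0 of 9 were called higher and 1 of 9 lower (13.5% and 16.7% of all tested miRNAs were lower there), which was let-7b-5p in both (-0.93 ± 0.257 and -1.36 ± 0.266; edgeR adjusted p = 0.00626 and 1.92e-04). The median difference of the 9 was -0.044 in Car-1 and 0.15 in Hutu80, beside 0.022 and 0.086 over all tested miRNAs. miR-20a-5p, miR-16-5p and miR-17-5p, the most abundant of the list after let-7b-5p, were not called across lines (edgeR adjusted p = 0.0861, 0.115 and 0.142).

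The miRNAs most like each member over the 6 line means were picked from 197 with a mean of at least 100 scaled CPM. For miR-365a-5p they were miR-92a-2-5p, miR-128-1-5p and miR-92b-5p (r = 0.99, 0.98 and 0.98). For miR-193b-5p they were miR-4443, miR-345-3p and miR-92b-5p (r = 0.98, 0.96 and 0.96). All 5 were among the 17 (5.35% of tested miRNAs) called higher in all 8 pairs. That follows largely from the way they were picked, since both 5p strands are among the 17. The likest to miR-365a-5p, miR-92a-2-5p, had means of 1024 ± 40.7 scaled CPM in Car-1 and 1224 ± 633 in Hutu80. In the other lines it had at most 39.5 ± 18.2. The lowest correlation with either 5p strand was that of miR-378a-5p (r = -0.90 and -0.97). For miR-193b-3p the nearest were miR-15b-3p, the hypoxia-induced miR-210-3p and miR-339-5p (r = 0.97, 0.87 and 0.80), and the lowest was miR-509-3p (-0.98), which is high in HT55. For miR-365a-3p, after miR-365b-3p with its equal counts, the nearest were miR-9-5p and miR-9-3p, known from neural cells (r = 0.87 and 0.85), and the lowest was miR-148a-3p (-0.85). Only 6 points enter each r.

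The sequences printed above differ in base composition between the strands, and the strands high in Car-1 and Hutu80 were the ones richer in G. G made up 50% of miR-193b-5p and 47.8% of miR-365a-5p, but 18.2% of miR-193b-3p and 4.55% of miR-365a-3p, beside a median of 27.3% over the 286 tested miRNAs with a RefSeq sequence (89.9% of those tested). Of the 14 other miRNAs higher in all 8 pairs, leaving out miR-365b-5p, 12 were above that median, beside 140 of all 286. The 14 were chosen by their calls in these same data. Across the 286, r between G content and the log2 difference was 0.20 in Car-1 and 0.15 in Hutu80. It was -0.19 in SW1116, -0.12 in MDST8, -0.077 in RCM-1 and -0.035 in HT55. miR-193a-5p, with 45.5% G, was not called in Car-1 or Hutu80 against the other 5 lines. In pairs, Hutu80 was called above HT55 and SW1116 for it (edgeR adjusted p = 0.0356 and 0.0077). Hutu80 and Car-1 were called below MDST8 (edgeR adjusted p = 0.0380 and 0.00221). From 30.8% to 44% of tested miRNAs were called in these pairs. With a per-library correction for G content, chosen after the data had been seen, miR-365a-5p differed by 3.58 in Car-1 and 4.59 in Hutu80 (edgeR adjusted p = 1.21e-05 and 4.61e-07). miR-193b-5p then differed by 2.27 and 1.48 (edgeR adjusted p = 1.16e-04 and 0.0156). The fitted log2 change per percent of G was -6.4e-04 and 0.020 in the Car-1 libraries, and 0.0091 and 0.017 in those of Hutu80. The correction thus differed between libraries of a line. The part of base composition in the 5p results was not tested.

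**Figure D5:**
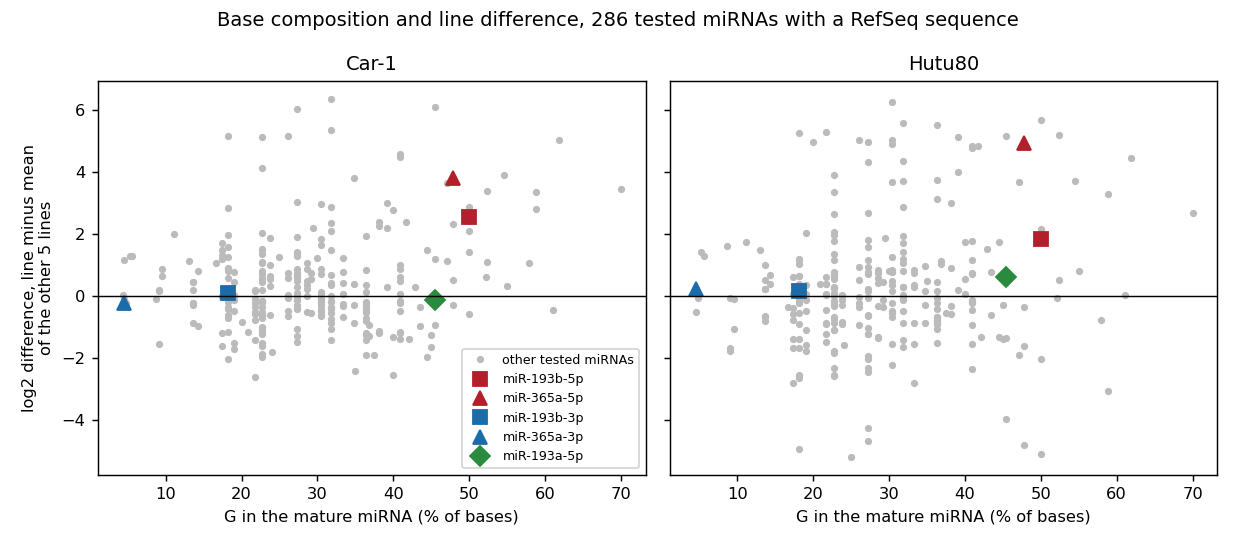
Percent of G in the mature sequence (x) against the log2 difference from the other 5 lines (y) in Car-1 and in Hutu80 for 286 tested miRNAs, with the members and miR-193a-5p marked. The 5p strands lie at 47.8% and 50% G and at differences of 1.84 to 4.91, while miR-193a-5p at 45.5% lies at -0.13 and 0.61.

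Cell type markers also differed between lines. The summed level of 5 epithelial miRNAs of the miR-200 family, all detected, was 30099 to 41603 scaled CPM in Car-1, 9113 to 10382 in Hutu80 and 4036 to 5515 in MDST8, beside 82118 to 153841 in HT55, SW1116 and RCM-1. miR-200c-3p and miR-200b-3p make up most of that sum. By the test, 5 of 5 were lower in Hutu80 and in MDST8, beside 16.7% and 22.3% of all tested miRNAs. In Car-1, however, 2 of 5 were higher and 0 lower, beside 21.1% and 13.5% of all tested miRNAs. Those 2 were miR-200a-3p (log2 difference 1.50 ± 0.251, edgeR adjusted p = 4.28e-05) and miR-200b-3p (0.79 ± 0.211; 0.00513), and the mean level of miR-200a-3p in Car-1, 1847 ± 1049 scaled CPM, was near those of HT55, SW1116 and RCM-1 (2034 ± 248, 1720 ± 224 and 1614 ± 288). The summed level of 4 intestinal epithelial miRNAs was 1955 to 2425 in Car-1, 2066 to 2111 in Hutu80 and 1024 to 1324 in MDST8. It was 13240 to 28110 in the other 3 lines. Of the 4, 3 were called lower in Car-1 and in Hutu80, beside 13.5% and 16.7% of all tested miRNAs. In MDST8 4 of 4 were, beside 22.3%. MDST8 was low in both sets of markers and in both 5p strands. Car-1 and Hutu80 were low in the intestinal set and high in both 5p strands. The 9 blood cell and serum miRNAs, of which the medium's serum is a possible source, summed to 3612 to 4625 in Car-1 and Hutu80. They summed to 5640 to 6166 in HT55, and to less in the other lines: 2555 to 3451 in RCM-1, 1812 to 2305 in MDST8 and 1711 to 2497 in SW1116. The part of these markers, and of the low depth of the Hutu80 libraries, in the 5p results was not tested.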

How the data were processed

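Vesicle small RNA of 6 lines, 2 libraries each, was sequenced after a library protocol with unique molecular identifiers, per the labels' protocols. The authors deposited raw counts per mature miRNA and a table of log2(CPM + 1) values. The build is hg38, per the submitters' processing notes; the sources used here give no aligner, no miRNA annotation release and no word on collapsing of identifiers. Reads of near-identical miRNAs may be shared between rows.

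The deposited counts were tested with edgeR 4.0.16 in R 4.3.3 (TMM, filterByExpr with a minimum count of 10, robust quasi-likelihood fit, 1 mean per line, no block). Each line was set against the mean of the other 5, and all 15 pairs were compared, with Benjamini-Hochberg adjustment over 318 miRNAs per comparison and a threshold of 0.05. The tested rows held 99.7% of all counts. Ratios used a pseudocount of 0.5. Alternatives used limma 3.58.1 and DESeq2 1.42.0. Scripts were tested on simulated data. Named miRNAs are the members, their chromosome 17 relatives and seed sharers, up to 4 abundant members of each list, and the 3 most and 1 least similar by line means. Members and lists were chosen with earlier results of these data known. Of the 1636 names 1470 matched a RefSeq sequence.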

Additional observations from a re-analysis of the deposited data

How the results depend on the processing

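Each edgeR result of a member was refitted under 23 alternatives and each ratio under 6, while strand shares, ranks and correlations were not refitted. Of the 23, 2 (G-content correction; rows of one sequence kept once) were chosen after seeing the data. The planned sum of miR-365a-3p and miR-365b-3p was not run, since their counts are the same reads. miR-365a-5p and miR-193b-5p stayed past the threshold across lines in all 23 (highest adjusted p 4.56e-06 and 0.00249), and miRNAs called across lines numbered 200 to 258. miR-193b-3p passed across lines with library totals (1.59, adjusted p = 0.0293) and with limma-trend (1.80, 0.0162). Its called pairs became 1 with no filter, 10 CPM in 2 libraries, DESeq2 or limma-voom, 4 with limma-trend or G-content correction, and 0 to 2 leaving out a library. Those of miR-365a-3p became 0 with library totals, no filter, DESeq2, limma-voom, limma-trend and G-content correction, and 0 to 1 leaving out a library; those of miR-193b-5p were 4 to 8, with 4 without Hutu80 replicate 2. With a pseudocount of 0.1 the miR-365a strand ratio spanned 9.41 (adjusted p = 0.0657). Leaving out a library, it spanned 5.34 to 11.1, miR-193b-5p over miR-193a-5p 4.77 to 6.08, miR-365a-5p over miR-193b-5p 3.32 to 8.53 and over miR-365b-5p 0.33 to 7.11.

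Of the 24 line differences of the members, 15 were not called. In their 345 refits 4 were called, all for miR-365a-3p in SW1116 (limma-voom, and without HT55, MDST8 or RCM-1 replicate 2). In 41 refits, over 8 of the 15, the sign changed. For miR-193b-3p in SW1116 it was -0.55 with library totals, -0.54 with limma-trend and -0.054 with G-content correction, and in Hutu80 -0.35 with no filter and -0.0037 with 10 CPM. For miR-365a-3p in Car-1 it was 0.40, 0.43 and 0.028 with library totals, limma-trend and G-content correction, and in Hutu80 -0.25 with no filter. In RCM-1, where the value is 0.0053, it was -0.055 with RLE, -0.17 with library totals, -0.049 with no filter, -0.0026 with 10 CPM, -0.066 with DESeq2, -0.30 with limma-trend, -0.045 with the replicate block, -0.042 without the 10 most abundant, -0.0061 with one row per sequence and -0.12 with G-content correction. Leaving out a library, miR-193b-3p ran from -0.26 to 0.26 in Car-1, -0.18 to 0.49 in SW1116 and -0.17 to 0.12 in Hutu80. miR-365a-3p ran from -0.13 to 0.56 in MDST8, -0.32 to 0.29 in Hutu80 and -0.70 to 0.43 in RCM-1, and miR-365a-5p from -1.56 to 0.26 in HT55. The cause of these shifts was not tested.

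Deviations of replicate 1 from the mean of its line correlated between lines at -0.23 to 0.27, over 0.1 in 5 of 15 pairs of lines. These values cannot tell whether same-numbered libraries of some lines share a batch. With the replicate block 223 miRNAs were called across lines (217 without) and miR-365a-5p spanned 6.78 (adjusted p = 2.80e-08). Library totals moved the median difference of all miRNAs to 0.64 in Car-1, 0.44 in Hutu80 and -0.88 in SW1116. The 3p strands had few counts in HT55, 5 and 20 for miR-193b-3p and 6 and 9 for miR-365a-3p. Those libraries held 138753 and 206808 counts, more than the 71831 and 100531 of Hutu80. The 0 of miR-365a-5p in SW1116 replicate 2 stands in a library of 498342 counts, where 1 count is worth 3.13 scaled CPM. SW1116 replicate 1, with 622800 counts, had 23, so the replicates disagreed. With 2 libraries a line, leaving one out assumes that the other varies like the rest.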
